A study of Mus musculus with 16 samples.

Results

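In the thoracic aorta of adult mice, 2866 of 36066 fibroblasts (7.95%) carried transcripts of at least 2 of the genes Coch, Prss35, Wif1 and Nrgn. A cell counted as a fibroblast when it held at least 5 unique molecular identifiers (UMIs, each standing for 1 captured transcript) of Dcn, which encodes the matrix proteoglycan decorin, and more of Dcn than of the smooth muscle myosin gene Myh11. The 2866 cells that passed the marker rule are called members, and the 33200 fibroblasts with fewer than 2 of the markers serve as their comparison. The members were chosen by the UMIs of these 4 genes, so every difference between members and other fibroblasts is given as a description with no test, and only comparisons among the members of different mice are tested.

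The cells came from male 129S6/SvEv mice in which tamoxifen activated Myh11-CreER, a recombinase driven by a smooth muscle promoter. Mice with floxed Smad3 alleles are labelled Smad3SmKO and mice with wild-type alleles Smad3+/+. Both genotypes carried Myh11-CreER and received tamoxifen at 6 weeks of age. The recombinase is aimed at smooth muscle cells, and recombination in the fibroblasts described here was not tested. Aortas from the root to the left subclavian artery were taken 10 weeks after deletion (2 Smad3+/+ and 2 Smad3SmKO libraries) or 18 weeks after deletion (5 Smad3+/+ and 7 Smad3SmKO libraries), with 1 library per mouse. Tissue was digested for 60 min at 10 weeks. At 18 weeks it was digested for 30 min in 7 libraries of batches 1, 2 and 3 and for 60 min in 5 libraries of batches 5 and 6, and those 5 libraries also carried the Myh11-GFP tracer allele. At 10 weeks, both Smad3+/+ libraries carried that tracer and neither Smad3SmKO library did, and all 4 were of batch 4.

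Of 66349 deposited cells, 50858 passed the limits on genes, UMIs and mitochondrial share, with 631 to 6497 cells per library. The libraries held 2 to 638 members each. 14 of the 16 held at least 10 members, and the Smad3+/+ 10-week replicate 1 (9 members) and the Smad3SmKO 18-week replicate 7 (2 members) were left out of all comparisons of transcript levels. Pooled over libraries, members were sequenced more deeply than the other fibroblasts, with a median of 10842.5 UMIs and 3281 genes per cell against 8098 UMIs and 2579 genes. Within single libraries the order varied. The part of depth in the results was not tested beyond the thinned and depth-matched values given below. Of the 2866 members, 33 had a barcode that was also kept in another library, and 1 barcode was a member in more than 1 library. In smooth muscle cells, where the deletion is targeted, Smad3 stood at 2.79 to 9.89 CPM (counts rescaled to a common total per library) in the 5 Smad3+/+ libraries of 18 weeks and at 4.01 to 17.3 CPM in the 7 Smad3SmKO libraries. These counts come from transcript 3′ ends, which need not lie in the deleted part, so they do not check the genotype labels. In members, Smad3 was 12.5 ± 7.80 CPM (SD, n = 5) in Smad3+/+ and 13.1 ± 3.76 CPM (n = 6) in Smad3SmKO at 18 weeks.

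Wnt proteins are secreted signals that act through Frizzled and LRP receptors to stabilise β-catenin, which switches on targets such as Axin2 and Lef1 together with transcription factors of the TCF/LEF family. R-spondins amplify the signal, and secreted inhibitors, among them Wif1 and the Sfrp and Dkk proteins, bind ligands or receptors and dampen it. Aortic fibroblasts lie mainly in the adventitia, the outer coat of the vessel, where they produce collagen and elastic fibre proteins. Of the rule markers, Wif1 encodes a secreted Wnt inhibitor and Coch encodes cochlin, an extracellular protein best known from the inner ear. Prss35 encodes a secreted protein of the serine protease family, and Nrgn encodes neurogranin, a calmodulin-binding protein of neurons.

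The 4 marker genes lie on 3 chromosomes of the mm10 build, with Coch at chr12:51593341-51605771 and Wif1 at chr10:121033960-121100650, both on the plus strand. Prss35 at chr9:86743649-86758443 (plus strand) and Nrgn at chr9:37544492-37552904 (minus strand) share a chromosome but are not neighbours. Wnt16, whose level differed most between members and other fibroblasts, lies at chr6:22288227-22298522 on the plus strand. The RefSeq promoter sequences of these 5 genes (build GRCm38.p6) are shown because the genes were detected together in the same cells. Each is the stretch before the gene's start, cut off at the first annotated exon base, written 5′ to 3′ on the gene's strand. Capitals mark matches on either strand to the GC box GGGCGG or the TATA box TATAAA, and the TCF/LEF core CTTTGA, which was searched likewise, had no match.
Coch, chr12:51593091-51593340, plus strand: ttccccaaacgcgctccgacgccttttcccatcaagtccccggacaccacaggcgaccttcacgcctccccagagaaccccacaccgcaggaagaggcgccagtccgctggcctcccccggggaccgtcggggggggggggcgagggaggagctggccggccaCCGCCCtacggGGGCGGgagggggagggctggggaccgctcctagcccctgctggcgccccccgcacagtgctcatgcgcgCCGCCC
Prss35, chr9:86743383-86743632, plus strand: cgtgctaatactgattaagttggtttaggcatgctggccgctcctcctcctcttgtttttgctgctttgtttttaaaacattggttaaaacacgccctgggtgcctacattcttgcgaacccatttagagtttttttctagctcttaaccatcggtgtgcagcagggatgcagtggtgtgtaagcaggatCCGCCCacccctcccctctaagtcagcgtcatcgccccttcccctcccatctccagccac
Wif1, chr10:121033754-121033959, plus strand: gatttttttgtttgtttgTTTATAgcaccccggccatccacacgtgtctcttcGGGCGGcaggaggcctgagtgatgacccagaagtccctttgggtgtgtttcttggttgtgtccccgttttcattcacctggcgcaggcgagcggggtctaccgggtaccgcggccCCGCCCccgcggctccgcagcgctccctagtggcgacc
Nrgn, chr9:37552905-37552995, minus strand: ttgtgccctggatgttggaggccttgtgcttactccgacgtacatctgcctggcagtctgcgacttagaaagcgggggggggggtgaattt
Wnt16, chr6:22287977-22288226, plus strand: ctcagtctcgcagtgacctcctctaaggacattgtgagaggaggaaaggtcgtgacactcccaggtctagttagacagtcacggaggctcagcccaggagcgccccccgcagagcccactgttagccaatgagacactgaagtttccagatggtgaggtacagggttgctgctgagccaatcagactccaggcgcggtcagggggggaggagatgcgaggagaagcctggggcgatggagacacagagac
The Coch stretch of 250 bases held 3 GC boxes and that of Prss35 held 1, while 32.7% of all 32851 RefSeq promoters cut to this length held at least 1. The Wif1 stretch of 206 bases held 2 GC boxes and 1 TATA box, which 25.8% and 9.38% of promoters of that length held. The 250 bases of Wnt16 and the 91 bases of Nrgn held neither motif. The TCF/LEF core stood in 13.8% of all promoters at 250 bases, 12.1% at 206 bases and 5.70% at 91 bases, and its absence says only that these letters are not in these windows. The motif matches thus did not form a shared pattern over the 5 promoters.

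Wif1 was the marker that nearly all members carried. A Wif1 UMI was present in 97.2% of members, a Prss35 UMI in 77.3%, a Coch UMI in 45.4% and a Nrgn UMI in 32.1%. In the other fibroblasts these shares were 11.3%, 1.42%, 0.292% and 0.961%. Leukocytes, which should lack all 4 genes, held UMIs of Wif1 in 1.63% of 2880 cells, of Prss35 in 0.0347%, of Coch in 0.382% and of Nrgn in 0.417%, at a median of 5642.5 UMIs per cell. The Coch share of the other fibroblasts was thus below that of leukocytes and is not read as expression, whereas their Wif1 share was above it. The most frequent combination was Prss35 with Wif1 alone, found in 1060 members (37.0%), followed by Coch, Prss35 and Wif1 in 624 (21.8%). All 4 markers were present in 252 members (8.79%). In all, 1628 members carried 2 markers, 986 carried 3 and 252 carried all 4, while 4641 of the other fibroblasts carried 1 and 28559 carried none.

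Marker levels were read per library as CPM over the summed UMIs of its members. Wif1 stood at 225 CPM in the lowest of the 14 libraries, 1451 in the median and 2223 in the highest, with a mean of 1401 ± 519 CPM (SD). Coch ranged from 193 through a median of 317.6 to 702 CPM. Prss35 ranged from 67.8 through 205 to 373 CPM, and Nrgn from 52.7 through 238 to 491 CPM. The lowest Wif1 value was that of Smad3+/+ 18-week replicate 4, which held 12 members. At 18 weeks, Nrgn in members was 262 ± 94.8 CPM (n = 5) in Smad3+/+ and 151 ± 122 CPM (n = 6) in Smad3SmKO, and the genotypes overlapped, with 194 to 423 CPM in the former and 52.7 to 354 in the latter. Coch was 328 ± 105 against 358 ± 184 CPM, Prss35 was 215 ± 95.1 against 246 ± 111, and Wif1 was 1223 ± 630 against 1441 ± 520, in Smad3+/+ and Smad3SmKO in turn, and all 3 overlapped between genotypes as well.

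The share of members among fibroblasts varied widely between mice. At 18 weeks with 30 min digestion, members made up 17.5%, 15.1% and 16.0% of the fibroblasts of the 3 Smad3+/+ libraries. In the 4 Smad3SmKO libraries of that digestion the shares were 22.7%, 12.6%, 11.03% and 4.35%. With 60 min digestion the shares were 0.542% and 5.97% in Smad3+/+ and 10.8%, 1.51% and 1.02% in Smad3SmKO. At 10 weeks they were 0.469% and 7.28% in Smad3+/+ and 1.36% and 3.13% in Smad3SmKO. The 30 min libraries of 18 weeks were thus mostly above the 60 min libraries, while the genotypes overlapped within each digestion. Exact 95% binomial intervals, which cover counting error only, ran from 16.3% to 18.8% for the largest set of 638 members and from 0.124% to 3.64% for the library with 2 members. Fewer such cells in the tissue and fewer released from it cannot be told apart.

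**Figure D1:**
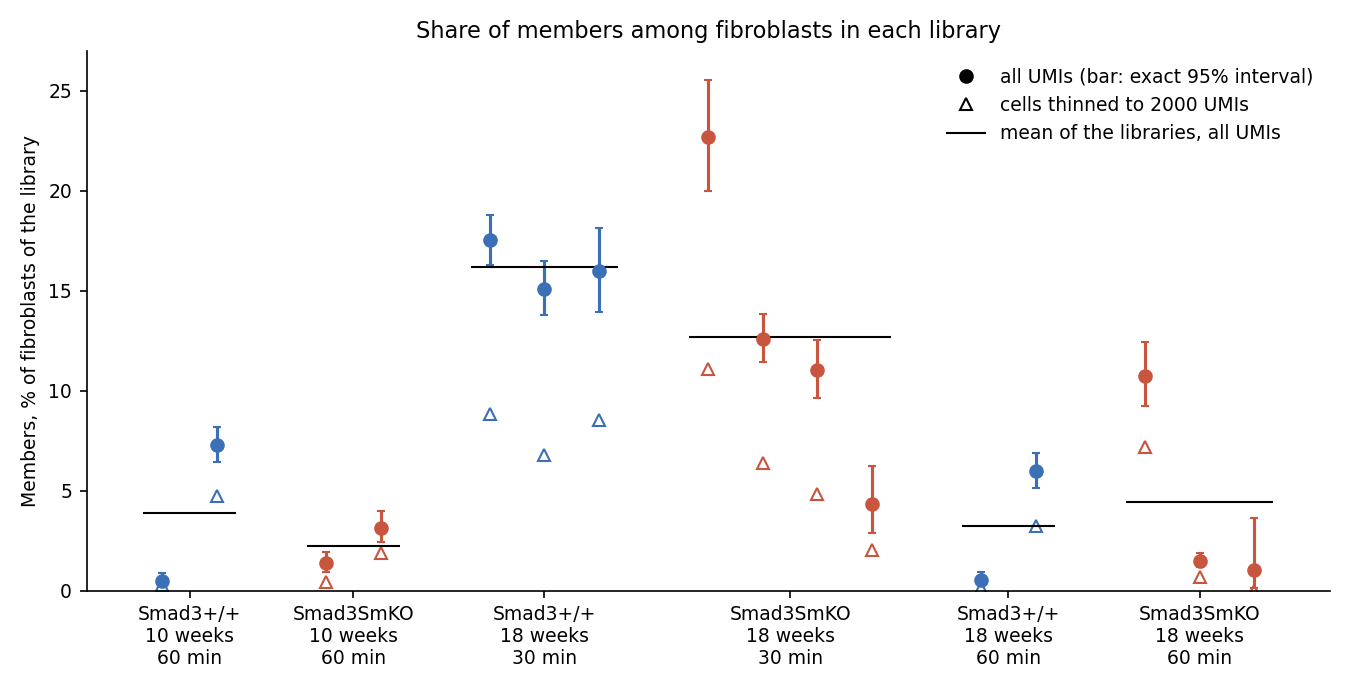
Share of members among the fibroblasts of each of the 16 libraries, in percent, by genotype, weeks after deletion and digestion time. Circles use all UMIs, with exact 95% binomial intervals; triangles use cells thinned to 2000 UMIs; lines are means over libraries. All but 1 of the 30 min libraries lie at or above 11.03%, and all 60 min libraries lie at or below 10.8%.

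The genotype comparison at 18 weeks asked whether loss of Smad3 in smooth muscle changed the share of members. The mean share was 9.14% ± 7.62 (SD, n = 7) in Smad3SmKO and 11.02% ± 7.40 (n = 5) in Smad3+/+, a difference of -1.88 percentage points, with p = 0.684 by an exact two-sided permutation test over 792 arrangements of the genotypes. An exact permutation within batches, with 36 arrangements, gave p = 0.5. Within batches, Smad3SmKO differed from Smad3+/+ by -5.71 percentage points in batch 1, 6.70 in batch 2, -10.7 in batch 3 and -1.75 in batch 6, while batch 5 held only Smad3SmKO. Among 30 min digestions the difference was -3.53 points (exact permutation p = 0.571, the smallest possible being 0.0571), and among 60 min digestions it was 1.17 points (exact permutation p = 0.8, the smallest possible being 0.2). No genotype difference in the share was detectable against the spread between mice.

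The digestion comparison at 18 weeks gave a larger difference in the share. Members made up 3.96% ± 4.37 (SD, n = 5) of fibroblasts after 60 min and 14.2% ± 5.72 (n = 7) after 30 min, a difference of -10.2 percentage points (exact two-sided permutation test, p = 0.0101). After thinning every cell to 2000 UMIs, 1475 fibroblasts still carried at least 2 markers, and the difference was -4.67 points (exact permutation p = 0.0303). Thinning to 5000 UMIs gave -8.22 points (exact permutation p = 0.0177), and as a share of all kept cells the difference was -9.60 points (exact permutation p = 0.00758). Digestion time differed only between batches and coincided with the tracer at 18 weeks, so these cannot be told apart. The permutations exchanged single libraries although digestion was set by batch. Their p-values therefore do not measure the spread between batches.

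Against the other fibroblasts of the same library, members differed at many transcripts that the rule did not name. For each of 6146 genes with at least 20 CPM in either population, the ratio of members to other fibroblasts was taken within each library on the log2(CPM + 5) scale, and a gene was called when its mean ratio was at least 2-fold and had the same sign in all 14 libraries. By this rule 571 genes differed (9.29% of all genes tested), of which 238 were higher (3.87%) and 333 lower (5.42%), and the median of all genes was 0.06. These counts describe the contrast that chose the members. A gene under 20 CPM in 1 population entered only through the other, where it was high, so that the counts and medians of the lists below are partly set by this limit and support nothing further. The highest ratios belonged to Wnt16 (4.39 ± 0.63, SD, n = 14), the long noncoding RNA 2700046A07Rik (3.62 ± 0.33) and Clca3a2 (3.44 ± 0.93). Next came Cttnbp2, a cytoskeletal regulator (3.39 ± 0.56), and Id4, an inhibitor of basic helix-loop-helix transcription factors (3.39 ± 0.56). The MHC class II gene H2-Ab1 (3.38 ± 0.81) followed, then the membrane proteolipid gene Mal (3.37 ± 0.56), the reticulon gene Rtn1 (3.36 ± 0.32) and the vesicle release gene Cadps (3.33 ± 0.59). H2-Eb1 (3.31), the noncoding RNA AC167229.1 (3.26) and H2-Aa (3.24) completed the 12 highest. Id4 was 334 CPM in the lowest library, 505 in the median and 931 in the highest among members, and 19.7 to 76.2 CPM in the other fibroblasts, with no overlap.

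The 12 lowest ratios were led by Dpep1, a membrane dipeptidase (-3.89 ± 1.3999), the growth factor gene Gdf10 (-3.81 ± 0.95) and Smoc2, a matricellular calcium-binding protein (-3.77 ± 0.80). Dpep1 was 3.24 CPM in the lowest library, 53.9 in the median and 235 in the highest among members, and 616 to 1615 CPM in the other fibroblasts. The list went on with the flavin monooxygenase gene Fmo2 (-3.70), the chemokine gene Cxcl14 (-3.64), Wisp2 (-3.55), the tissue factor gene F3 (-3.54) and the complement gene C3 (-3.48). Igfbp6 (-3.48), Ly6c1 (-3.47), Clec3b (-3.42) and the guidance cue gene Slit3 (-3.37) closed it. These 12 genes were chosen among those with a ratio below 0 in all 14 libraries, so that agreement is no result of its own. Some ratios came near 0 in a single library. Cxcl14 (SD 1.54) was at -0.0162 in Smad3SmKO 10-week replicate 2, and Clec3b (SD 1.24) at -0.400 in Smad3+/+ 18-week replicate 4.

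Among Wnt genes, the ligands Wnt16, Wnt11 and Wnt5a, the R-spondin Rspo3 and the targets Lef1, Tnfrsf19, Axin2 and Nkd2 were called higher in members, and 4 secreted inhibitors were called lower. Of 23 Wnt ligand and R-spondin genes, 6 reached 20 CPM, and Wnt16, Wnt11, Wnt4 and Wnt9a reached it only in members, so their number and direction are not read further. Wnt16 stood at 91.4 CPM in the lowest library, 202 in the median and 377 in the highest among members, and at 1.06 to 11.9 CPM in the other fibroblasts, so the populations did not overlap. Rspo3, an R-spondin, stood at 71.6, 261 and 361 CPM against 6.94 to 46.5 CPM (ratio 3.10 ± 0.43). Wnt11 (2.09 ± 0.73) and Wnt5a (1.38 ± 0.66), ligands that often act without β-catenin, were the other 2 called. Wnt4 (1.30 ± 1.05, above 0 in 12 of 14 libraries) and Wnt9a (0.65 ± 0.50) were not called. In each of these genes the ratio compares 1 gene with itself, and levels of different genes are not compared.

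Of 7 other secreted inhibitors measured, 4 were lower and only Dkk3 was higher, with a median of -1.17. Over all genes tested, 5.42% were lower and 3.87% higher. Sfrp1 (-1.99 ± 0.65), Sfrp2 (-2.54 ± 0.99) and Sfrp4 (-2.35 ± 0.78), which bind Wnt ligands, and Igfbp4 (-1.17 ± 0.48) were the lower genes. Dkk3, a divergent member of the Dickkopf family, stood at 418, 708 and 1048 CPM in the lowest, median and highest library of members and at 121 to 267 CPM in the other fibroblasts (ratio 1.85 ± 0.30). Frzb (0.03 ± 0.30) and Sost (-0.77 ± 0.99) were not called. Of 7 receptor genes measured, only the Frizzled gene Fzd4 was called (-2.69 ± 0.51), and the R-spondin receptor Lgr4 had a ratio of 0.93 ± 0.65, with a list median of 0.17. Of 12 targets, 7 reached 20 CPM, and the 4 that were called higher reached it only in members, so their number is not read further. Lef1 stood at 9.11, 29.2 and 47.5 CPM against 0 to 1.90 CPM (ratio 2.50 ± 0.51), with no overlap between the populations. Axin2, a feedback inhibitor of the pathway, stood at 8.20, 34.8 and 62.9 CPM against 2.43 to 7.47 CPM (ratio 1.93 ± 0.65). Tnfrsf19 (2.38 ± 0.68) and Nkd2 (1.28 ± 0.49) were also called, and Nkd1 (0.92), Ccnd1 (1.06) and Myc (-0.13) were not.

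**Figure D2:**
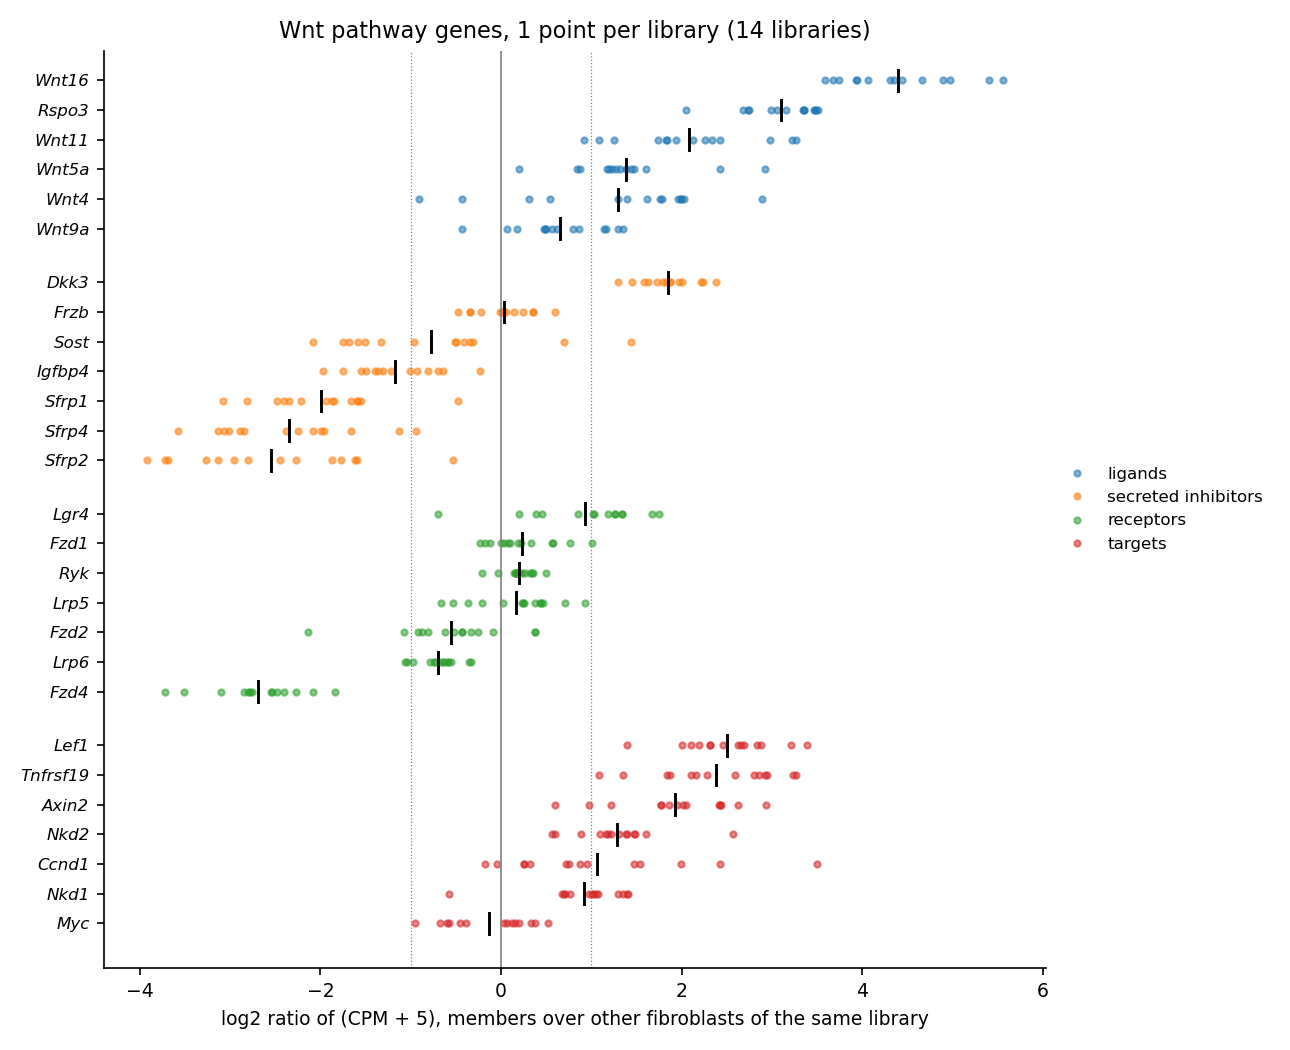
Log2 ratio of (CPM + 5) in members over other fibroblasts of the same library for Wnt ligands, secreted inhibitors other than Wif1, receptors and targets. Each point is 1 of 14 libraries, black bars are means and dotted lines mark 2-fold. Wnt16 lies between 3.59 and 5.56 in every library, and the means of Sfrp1, Sfrp2 and Sfrp4 lie at or below -1.99.

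Matrix genes are given next by list, and their counts are partly set by the limit of 20 CPM and are not read further. Of 24 collagen genes measured, 14 were lower and 1 was higher, with a median of -1.27. Over all genes tested, 5.42% were lower and 3.87% higher. Col1a1, the main fibrillar collagen chain, stood at 812, 1180 and 1957 CPM in the lowest, median and highest library of members and at 1538 to 4863 CPM in the other fibroblasts. Its ranges overlapped across mice, but within every library it was lower in members (-1.23 ± 0.36). Col3a1 (-2.08 ± 0.55), the basement membrane chain Col4a1 (-1.95 ± 0.56) and Col14a1 (-3.25 ± 1.01) were lower, and the transmembrane collagen gene Col13a1 was the higher one (1.84 ± 0.68). Of 18 elastic fibre genes, 6 were lower and none higher, with a median of -0.78. Eln, which encodes tropoelastin, stood at 10.2, 80.9 and 254 CPM in members and at 152 to 1773 CPM in the other fibroblasts (-3.14 ± 0.89). The crosslinking enzyme gene Lox (-2.98 ± 0.69), the microfibril genes Mfap5 (-2.63 ± 0.39) and Fbn1 (-1.68 ± 0.28), Fbln5 (-1.21 ± 0.42) and Loxl3 (-1.62 ± 0.47) were the other lower genes. Mfap2 had ratios above 0 in all 14 libraries (0.62 ± 0.30), short of 2-fold.

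Of 12 small leucine-rich proteoglycan genes, 6 were lower and none higher, with a median of -1.34, beside 5.42% lower and 3.87% higher over all genes tested. Ogn (-3.28 ± 1.27), Podn (-3.11 ± 0.74) and Aspn (-2.82 ± 1.13) were lowest, while Dcn, which the gate used, had a ratio of 0.15 ± 0.26 and Lum one of -0.13 ± 0.46. Of 22 matricellular and adaptor genes, 10 were lower and 1 higher, with a median of -1.49. The higher one was Postn, which encodes periostin, at 518, 1113 and 1826 CPM in members against 131.8 to 492 CPM (2.03 ± 0.60). Sparc (-1.56 ± 0.58), Tnxb (-2.64 ± 0.58) and Fbln7 (-3.03 ± 0.68) were among the lower ones. Of 20 serine protease and serpin genes other than Prss35, 9 were lower and 1 higher, with a median of -1.02. The protease genes Prss23 (-3.15 ± 1.15) and C1s1 (-2.88 ± 0.63) and the complement inhibitor Serping1 (-2.002 ± 0.36) were lower, and Plat, which encodes tissue plasminogen activator, was higher (1.48 ± 0.36). Of 13 calmodulin genes and genes for its binding proteins other than Nrgn, only Marcksl1 was called (1.52 ± 0.41), with a median of 0.10.

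**Figure D3:**
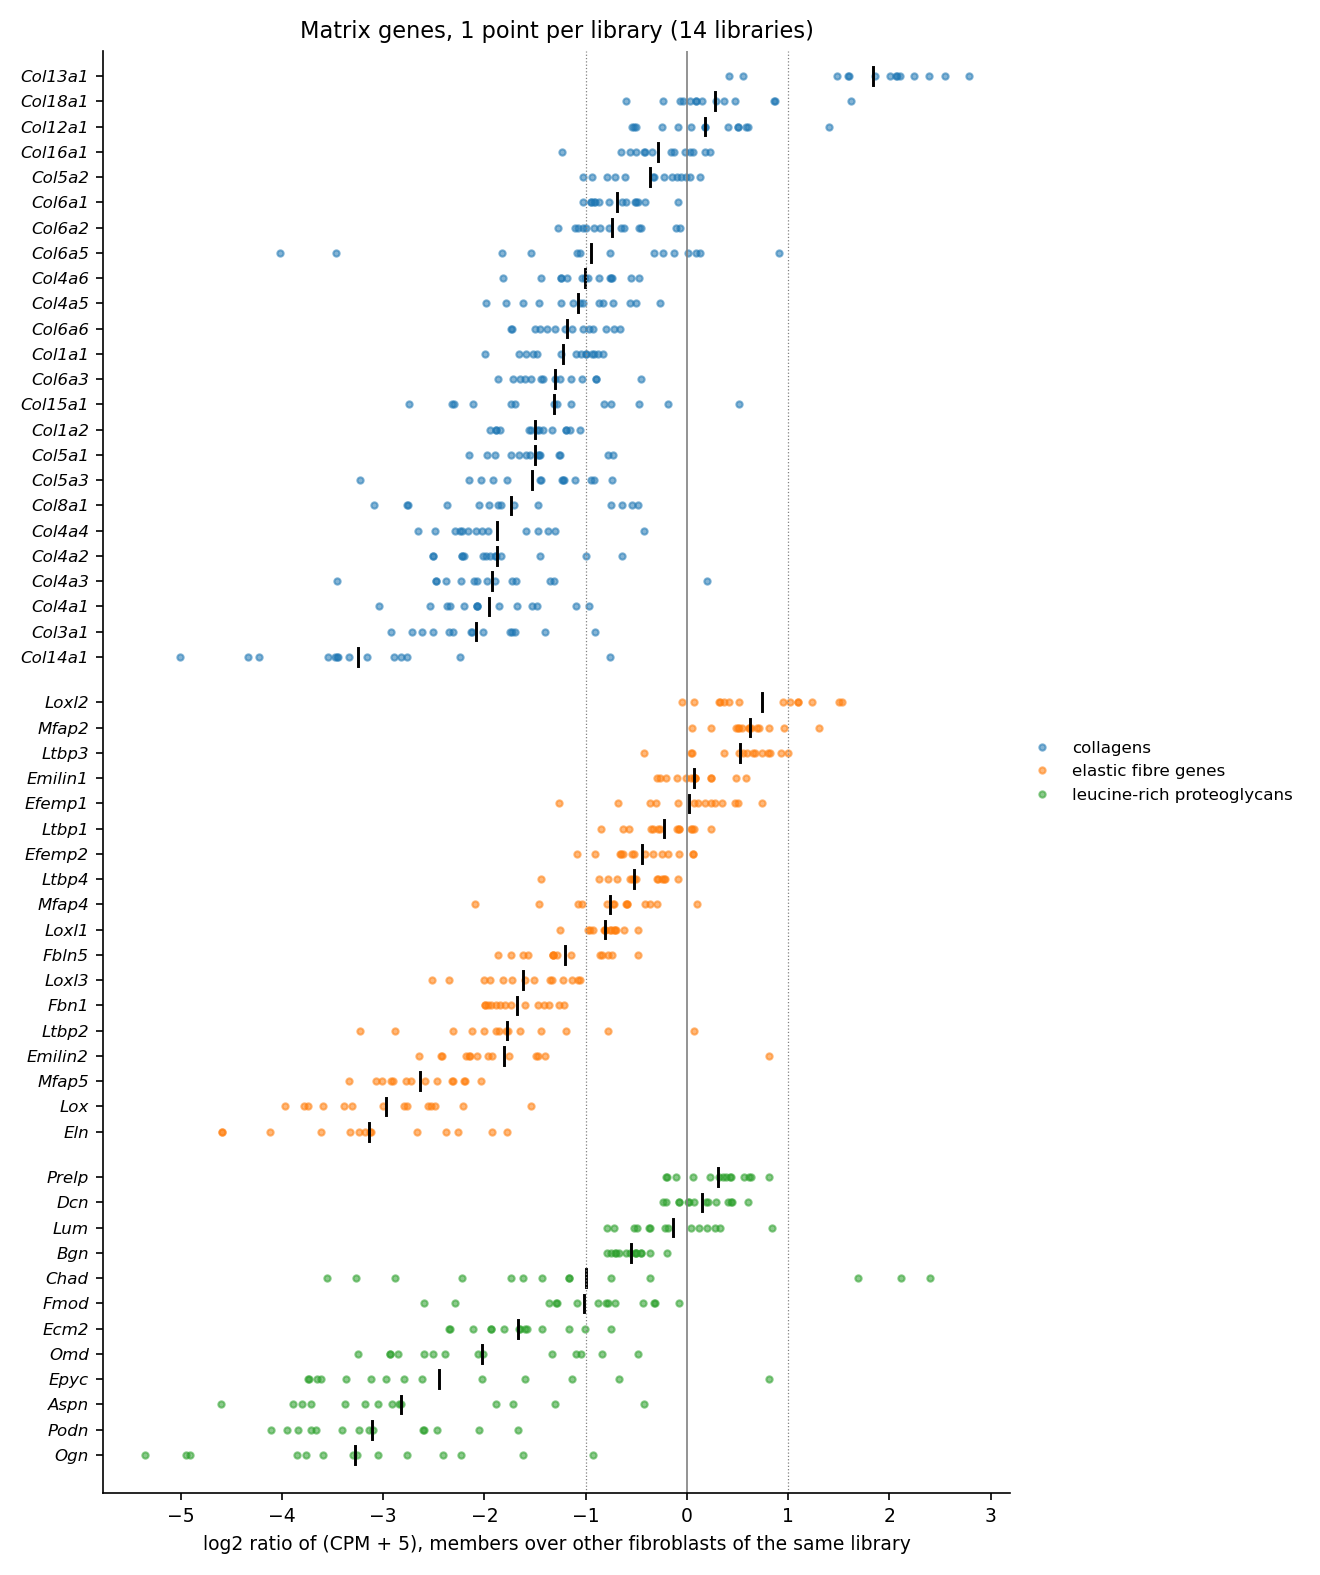
Log2 ratio of (CPM + 5) in members over other fibroblasts of the same library for collagens, elastic fibre genes and small leucine-rich proteoglycans. Each point is 1 of 14 libraries, black bars are means and dotted lines mark 2-fold. Most means lie below 0, with Col14a1 (-3.25), Ogn (-3.28) and Eln (-3.14) lowest in their lists and Col13a1 (1.84) the only one above 1.

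Members were also compared with the other fibroblasts at 12 fibroblast markers, of which Dcn was set by the gate. All 12 were detected in members, but so were all 10 endothelial, all 10 leukocyte and all 10 heart muscle markers, so detection does not check the label. Of the 12, 9 were called lower in members, beside 5.42% of all genes tested. Their summed level was 19777 to 31876 CPM in members against 31943 to 58761 CPM. Pdgfra, a receptor that marks fibroblasts, was at 90.2 CPM in members against 226 CPM (ratio -1.32 ± 0.33), and Dpt, Dcn and Lum were not called. Summed smooth muscle markers had a median of 1549 CPM in members and 1824 CPM in the other fibroblasts, and reached 8250 CPM in 1 library of members. Myh11 was highest in the members of the 2 Smad3SmKO libraries of 10 weeks, at 300 and 390 CPM, against a median of 9.14 CPM over all 14. Endothelial markers had a median of 40.3 CPM in members against 70.3 CPM, and heart muscle markers 15.3 against 36.0 CPM. Pericyte markers stood at 337 against 372 CPM with Vtn at 0, Schwann cell markers at 133 against 48.1 CPM with S100b the main contributor, and mesothelial markers at 0.342 against 2.06 CPM. Their part in the differences between members and other fibroblasts was not tested.

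Markers that the other fibroblasts carried in groups were rare in members. At least 2 of Hsd11b1, F3 and Vegfd were detected in 3.91% of members and 39.4% of the other fibroblasts. At least 2 of Tnfrsf11b, Dio2 and Hhip were detected in 3.66% against 15.2%, and at least 2 of Has1, Spon2 and Cxcl5 in 0.488% against 8.42%. For Dpp4, Smpd3 and Pi16 the shares were 1.47% and 7.51%, and for Cnmd, Inmt and Ggt5 they were 0.209% and 2.87%. Members had the lower share in all 14 libraries for these 5 groups. The deeper sequencing of members held only for the pooled cells and not in every library. In Smad3SmKO 18-week replicate 4, for example, their median was 14041.5 UMIs against 17504.5, and the part of depth in these shares was not tested. Foxd1 together with Col11a1 was detected in 0.209% of members and 2.46% of the other fibroblasts, lower in 13 of 14 libraries. Chad together with Thbs4 was detected in 0.837% of members and 0.605% of the other fibroblasts, although members had the lower share in 10 of 14 libraries. These groups of genes were drawn up with earlier results of these data known.

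Transcription factors known from heart valves, outflow tract and position along the body were measured as 13 genes, of which 6 were higher and 3 lower in members, with a median of 0.93. Over all genes tested, 3.87% were higher and 5.42% lower. Gata4 stood at 53.9, 78.3 and 105 CPM in the lowest, median and highest library of members and at 10.7 to 28.4 CPM in the other fibroblasts (1.84 ± 0.24). Msx1 (1.82 ± 0.46), Tbx20 (1.59 ± 0.57), Meox1 (1.43 ± 0.53), Sox9 (1.35 ± 0.31) and Hand2 (1.11 ± 0.26) were also higher. Tcf21, a factor of epicardium-derived fibroblasts (-2.60 ± 0.91), Meox2 (-2.75 ± 0.72) and Prdm6 (-1.80 ± 0.66) were lower. The cartilage link protein gene Hapln1 stood at 36.4 to 113 CPM against 0.578 to 5.75 CPM (3.21 ± 0.46). It was 1 of 4 cartilage markers that reached 20 CPM, of which Sox9 was also higher and Comp (-0.94 ± 1.03) and Chad (-0.996 ± 1.90) were not called and lay below 0 in 11 of 14 libraries each. Summed cartilage markers had a median of 617 CPM in members and 709 CPM in the other fibroblasts. Of 8 tendon and ligament genes 2 were called, both lower, with a median of -0.94, and the tendon factor Scx had a ratio of 1.65 ± 0.71, above 0 in 13 of 14 libraries. Of 10 TGF-β ligand and receptor genes only Acvrl1 was called (-2.43 ± 0.73), and of 17 TGF-β targets Cdkn2b (1.88 ± 0.55) and Bambi (1.35 ± 0.41) were higher, with medians of 0.08 and 0.00. Of 12 BMP and GDF genes, Bmp5 was higher (1.53 ± 0.62) and Gdf10, Nbl1 (-2.15 ± 0.48) and Bmp4 (-1.29 ± 0.39) were lower, with a median of -0.27. Immediate early genes, which dissociation can induce, had a median of -0.16, and 2 of 23 were called, Nr4a3 (-1.21) and Klf4 (-1.28), both lower. Of 10 interferon-induced genes Bst2 alone was called (-1.24), with a median of 0.26.

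Some MHC class II genes, which present antigen and are best known from leukocytes, were high in members. This group of 10 genes was chosen after its values were seen, and 6 of them reached 20 CPM, of which H2-Ab1, H2-Aa, H2-Eb1, H2-DMb1 and Cd74 were called higher. H2-DMa (2.33 ± 0.92, above 0 in 13 of 14 libraries) was not called, and H2-DMb2 (0.904 CPM), H2-Oa (0.0292 CPM) and H2-Ob (0.0330 CPM) were near 0 in members. H2-Ab1 stood at 71.6, 465.97 and 630 CPM in the lowest, median and highest library of members and at 3.94 to 76.2 CPM in the other fibroblasts, so 1 library of members, Smad3+/+ 18-week replicate 4, fell within the range of the others. Cd74, the invariant chain, stood at 343, 999 and 1984 CPM against 13.4 to 614 CPM (2.88 ± 1.05). UMIs of at least 3 of H2-Ab1, H2-Aa, H2-Eb1 and Cd74 were present in 53.8% of members in the 14 libraries (16.7% to 68.7% by library) and in 0.727% to 6.03% of the other fibroblasts. H2-DMb1 had a ratio of 2.44 ± 0.23, and Ciita, the class II transactivator, was at 4.78 against 0.448 CPM. Summed leukocyte markers were higher in members in 14 of 14 libraries (median 1106 against 264 CPM), but Cd74 is on that list, and C1qa (-1.02 ± 1.68), C1qb (-1.23 ± 1.51) and Lyz2 (-1.38 ± 1.85) had ratios below 0 on average. A UMI of Ptprc, Cd68, C1qa or C1qb was present in 162 of 1537 class II-positive members (10.54%) and in 103 of 1318 other members (7.81%). Cells with UMIs of at least 3 markers of leukocytes, endothelium or heart muscle, which may be doublets, made up 2.58% of members and 3.14% of the other fibroblasts.

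Around the threshold of the rule, the levels of genes outside it changed in steps. Wnt16 was 1.58 CPM over fibroblasts with no marker, 17.4 with 1, 136 with 2, 272 with 3 and 365 with 4. Id4 was 28.1, 118, 481, 548 and 719 CPM, and Rspo3 was 16.9, 54.0, 242, 301 and 305 CPM. Eln was 814, 462, 75.8, 88.5 and 62.8 CPM, and Clec3b was 1604, 1060, 163, 56.4 and 103 CPM. The widest gap in CPM thus lay between 1 and 2 markers for Id4, Rspo3, Eln and Clec3b, and fibroblasts with 1 marker lay between those with none and the members for each of these 5 genes. Wnt16, Id4, H2-Ab1, Rspo3 and Mal were higher with 2 markers than with 1 in 14 of 14 libraries. Lef1 was higher in 13, Dcn in 10, Dpep1 in 1, and Eln, Smoc2, Clec3b and Col1a1 in none. All of these genes but Dcn had been called between members and other fibroblasts. The steps are thus largely set by that contrast and support nothing further. At the edge of the Dcn limit stood 3 members with exactly 5 Dcn UMIs and 3 cells outside the gate with exactly 4.

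**Figure D4:**
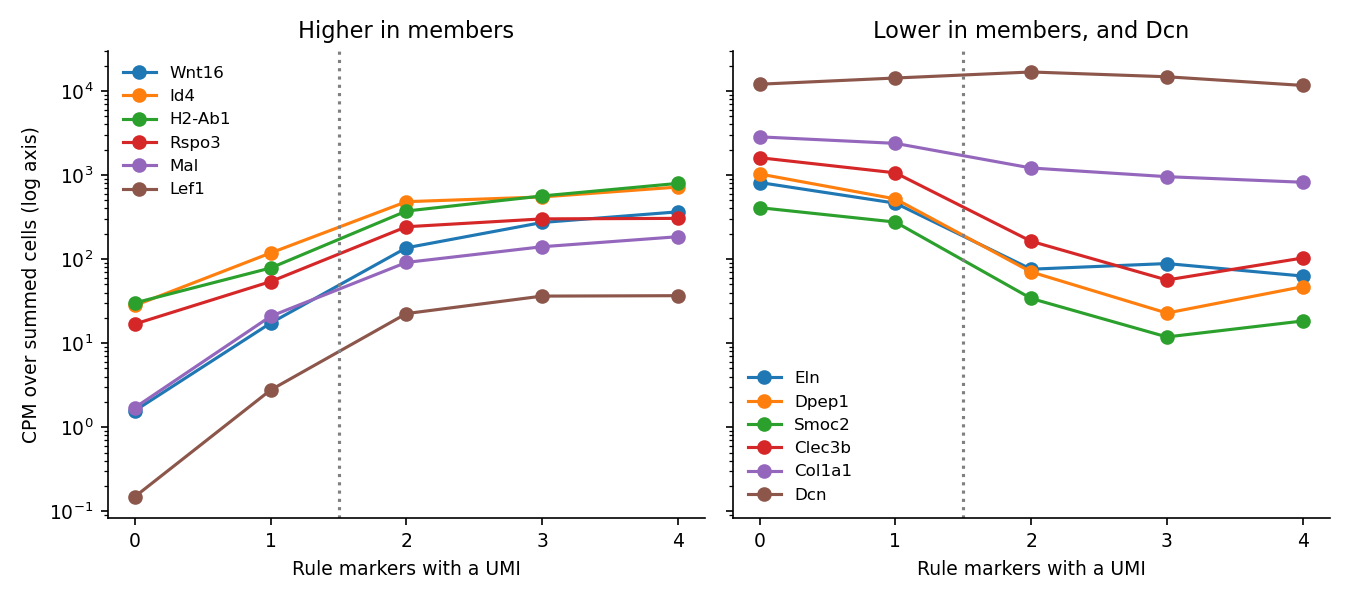
Level over summed fibroblasts, in CPM on a log axis, by the number of rule markers with a UMI. The left panel shows 6 genes higher in members and the right panel 5 lower genes and Dcn, with the rule's threshold dotted. Wnt16 goes from 1.58 to 365 CPM and Clec3b from 1604 to 103 CPM, while Dcn stays between 11615 and 16782 CPM.

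Members were not uniform, and those with Nrgn UMIs differed from those without at many transcripts. These splits and the genes named for them were chosen after their values were seen, and they describe the cells that the rule chose. Nrgn and Prss35 were both detected in 501 members (17.5%), Prss35 without Nrgn in 1714 (59.8%), Nrgn without Prss35 in 419 (14.6%) and neither in 8.09%. Since a member needs 2 markers, a cell without 1 of them is likelier to hold the others, so such counts are partly set by the rule. In the 11 libraries with at least 15 members on each side, 884 members with Nrgn were set against 1901 without, at median depths of 11098.5 and 10641 UMIs.

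Members with Nrgn had higher Clca3a2 (211.5 against 29.1 CPM, 2.73 ± 0.83), Wnt4 (63.6 against 6.00 CPM, 2.39 ± 0.90) and Cd74 (2364 against 615 CPM, 2.13 ± 0.87). The heparanase gene Hpse (1.75), the endothelial diaphragm gene Plvap (1.69), H2-Aa (1.56), the P-selectin gene Selp (1.54), H2-Eb1 (1.51) and AC167229.1 (1.51) were among the next. Lower in members with Nrgn were Pamr1 (16.2 against 67.3 CPM, -1.92 ± 0.96), the potassium channel gene Kcnj15 (-1.88), Fndc1 (-1.82), 1810041L15Rik (-1.63) and Ucma (-1.54). Rasl11b (-1.53), Papss2 (-1.52), Tesc (-1.51), the microfibril gene Mfap4 (550 against 1434 CPM, -1.50 ± 0.68) and Thbs1 (-1.43) were lower as well, and so was Scx (39.0 against 98.1 CPM, -1.39 ± 0.77). Each of these ratios had the same sign in 11 of 11 libraries, but the genes were chosen with their values seen, so that agreement is no result of its own. Wnt16 had a ratio of 0.04 ± 0.51 between the same cells, above 0 in 5 of 11 libraries.

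**Figure D5:**
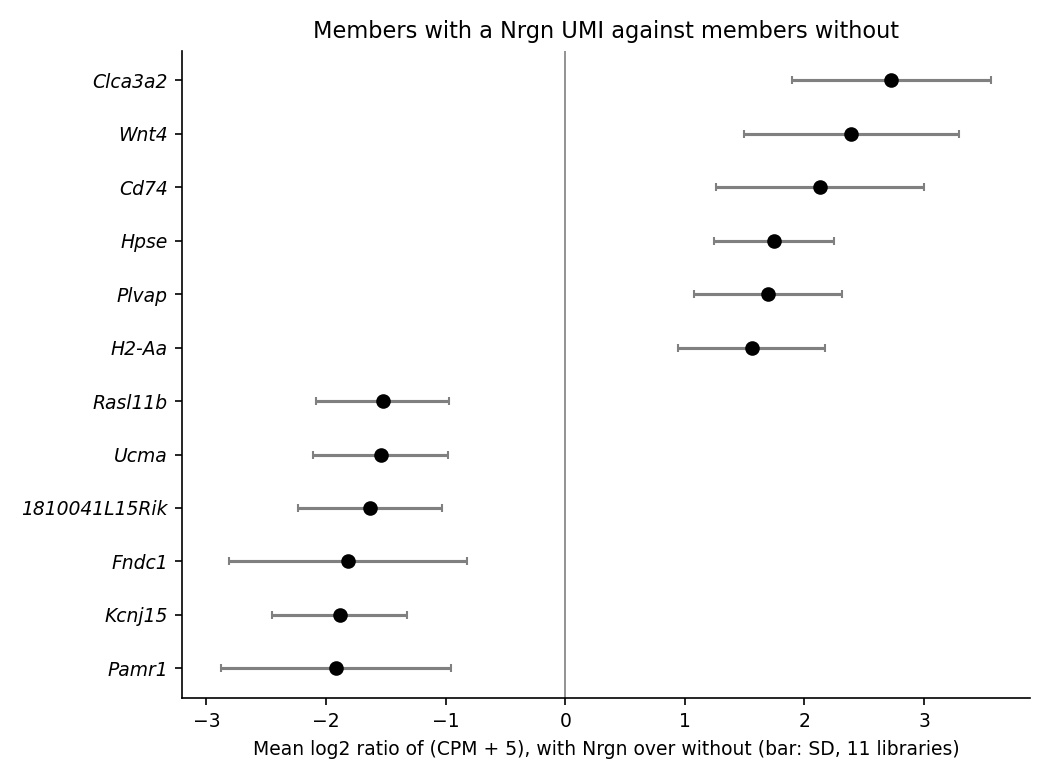
Mean log2 ratio of (CPM + 5) in members with a Nrgn UMI over members without, for the 6 highest and 6 lowest genes with the same sign in 11 of 11 libraries; bars are SDs over the 11 libraries. Clca3a2 (2.73) and Wnt4 (2.39) head the higher genes, and Pamr1 (-1.92) and Kcnj15 (-1.88) are lowest.

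The split by Prss35 (2163 members with, 622 without, median 11240 and 9147.5 UMIs) ran the other way for several of these genes. Members with Prss35 had higher Fndc1 (1.74 ± 0.84), Itih5 (1.67 ± 0.59), the intermediate filament gene Nes (1.56 ± 0.61), Pdlim3 (1.15 ± 0.52), the protein C receptor gene Procr (1.15 ± 0.47) and Mfap4 (0.92 ± 0.40). They had lower Clca3a2 (-1.50 ± 0.93), Hpgd (-1.38 ± 0.76), Perp (-1.35 ± 0.58) and Cd74 (-1.31 ± 0.66). The 2 splits share cells and are not independent. The split by Coch (1269 with, 1516 without) is given by a few genes. Wnt16 was 281 against 148 CPM (0.98 ± 0.32), Edil3 was 0.93 ± 0.38, Ncam1 was 0.76 ± 0.47 and Msx1 was 0.60 ± 0.34 above, and Car3 (-1.71 ± 1.12), Pi15 (-1.23 ± 0.44) and Ltbp2 (-1.03 ± 0.66) were below, each in 11 of 11 libraries. Only 2 libraries had 15 members without Wif1, so no values are given for that split.

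Transcript levels of members were then compared between genotypes, with counts summed per library and tested by the edgeR quasi-likelihood test over all genes, with Benjamini-Hochberg adjustment. At 18 weeks, 5 Smad3+/+ and 6 Smad3SmKO libraries entered the comparison. Smad3SmKO replicate 5 was the only library of batch 5 among them, so the batch covariate left it no part in the fitted genotype effect. No gene of 11804 tested passed an adjusted p of 0.05 (percent called 0), 215 genes had an unadjusted p under 0.05, and DESeq2 likewise called 0, with 158 unadjusted. The smallest p belonged to Grp, a bombesin-like peptide gene, with a log2 fold change of -6.37 (edgeR adjusted p = 0.290). It was at 0 to 97.2 CPM in Smad3+/+ and 0 to 1.17 CPM in Smad3SmKO, so the groups overlapped and 1 library held the high value. The growth factor gene Ereg (1.60, edgeR adjusted p = 0.808) and Gm8300 (6.69, edgeR adjusted p = 0.814) followed. None of the gene lists held a called gene.

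The genes that set members apart overlapped between genotypes at 18 weeks. Wnt16 was 265 ± 90.1 CPM (n = 5) in Smad3+/+ and 180 ± 87.2 CPM (n = 6) in Smad3SmKO. Lef1 was 30.9 ± 10.7 against 28.6 ± 14.3 CPM, and H2-Ab1 411 ± 192 against 489 ± 104 CPM. Smad3 itself had a log2 fold change of -0.17 (SE 0.29, edgeR adjusted p = 1.0) after adjustment for batch, opposite in sign to the difference of the unadjusted means given above, and its SE exceeded it. Among Wnt ligands, inhibitors, receptors and targets, the median log2 fold changes were -0.09, 0.01, -0.11 and -0.14, beside 0.00 over all genes tested. TGF-β ligands and receptors had a median of 0.05 and TGF-β targets one of 0.04. Without Smad3SmKO replicate 2, 6 genes passed, and without Smad3+/+ replicate 3, Smad3+/+ replicate 5 or Smad3SmKO replicate 1, 1 gene passed in each case.

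At 10 weeks, 2 Smad3SmKO libraries were set against 1 Smad3+/+ library with 250 members, so that the lone library was assumed to vary like the others, and the tracer differed between them. No gene of 11804 passed (percent called 0), 563 had an unadjusted p under 0.05, and DESeq2 called 5. The cartilage proteoglycan gene Chad had the smallest p, at 741 and 751 CPM in Smad3SmKO against 46.9 CPM (log2 fold change 3.85, SE 0.56, edgeR adjusted p = 0.0617). Comp, a matrix protein of cartilage and tendon, was at 681 and 730 against 105 CPM (2.61, edgeR adjusted p = 0.300), and Mfge8 was at 448 and 1382 against 127 CPM (2.68, edgeR adjusted p = 0.423), with the opposite sign (-0.0699) in members with at least 3 markers. These 3 genes, together with Sost and Lrg1, were the 5 that DESeq2 called. The same 2 libraries held the highest Myh11 levels of all members, given above, and the part of other cells in these values was not tested.

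Whether the genotype difference itself differed between members and the other fibroblasts was tested as an interaction at 18 weeks. Of 15066 genes, 8 passed (0.0531%), all with a lower value for members, and 538 had an unadjusted p under 0.05. The direction was not uniform under other settings, with 14 higher and 35 lower genes in members with at least 3 markers, 17 and 25 after thinning to 2000 UMIs, and 6 and 18 without Smad3SmKO replicate 2. Besides Epha3 they were S100a8, S100a9, Il1b, Retnlg, Hp, Clec4e and Nefl, and S100a8, S100a9, Il1b, Retnlg and Clec4e are known from myeloid cells. In Smad3+/+ members several of them came from single cells. S100a8, a neutrophil calcium-binding protein gene, had 112 of its 116 UMIs in 1 cell of Smad3+/+ replicate 5. S100a9 had 352 of 361 UMIs in 1 cell of Smad3+/+ replicate 1 and 212 of 217 in 1 cell of replicate 5. In Smad3SmKO replicate 5 the UMIs were spread more widely, with 286 of S100a9 over 43 cells and 267 of Il1b over 36. That library was the only one of batch 5 in the fit, however, so the membership by batch terms left it no part in the tested difference. Without the possible doublets, only Nefl and Epha3 passed. The leukocyte markers that flag such cells include S100a8 and S100a9, so this setting removes cells partly by genes tested here. In Smad3+/+ replicate 1 Nefl had 62 of its 63 UMIs in 1 cell, with 3 UMIs in Smad3+/+ replicate 3 and 1 in Smad3SmKO replicate 5 besides.

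Epha3, an ephrin receptor gene, was detected in both populations of every genotype. In members it was 17.2 ± 9.22 CPM (n = 5) in Smad3+/+ and 17.1 ± 8.47 CPM (n = 6) in Smad3SmKO. In the other fibroblasts it ranged from 13.6 to 27.02 CPM in Smad3+/+ and from 15.3 to 51.8 CPM in Smad3SmKO. The difference of the genotype effects was -1.41 on the log2 scale (SE 0.21, edgeR adjusted p = 0.00177). The highest levels were those of the other fibroblasts in Smad3SmKO, and the genotypes overlapped in both populations. Without terms that let membership vary by batch, no gene passed, and the Epha3 value was -0.84 (edgeR adjusted p = 1.0).

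With 60 min (n = 4) against 30 min (n = 7) of digestion at 18 weeks, 205 genes of 10955 passed in members (1.87%), by edgeR with adjustment over all genes. Of these, 160 were higher (1.46%) and 45 lower (0.411%) with 60 min. The fit had no batch term although digestion was set by batch, so its adjusted p-values do not cover the spread between batches. Kdm6b, a histone demethylase gene, was 83.5 to 143 CPM after 60 min and 29.2 to 55.7 CPM after 30 min (log2 fold change 1.66, SE 0.20, edgeR adjusted p = 0.00450). The stress phosphatase subunit gene Ppp1r15a (1.41), the amino acid transporter gene Slc7a5 (2.44), the peptide hormone gene Adm (2.80) and Ier5 (1.63) rose, each without overlap between the groups. H2afx (1.36), the zinc transporter gene Slc39a1 (1.43), Gas7 (1.10) and the pseudogene Ftl1-ps1 (1.80), whose reads were not checked against those of ferritin light chain, rose as well, and so did Usp50 (2.12), with overlap. Among genes that fell were the potassium channel genes Kcnma1 (-1.17) and Kcnmb4 (-1.76), Rnf34 (-1.16), the mitochondrial transcripts mt-Nd2 (-1.14), mt-Atp6 (-1.18) and mt-Co2 (-0.84), and the glucocorticoid-induced gene Tsc22d3 (-1.14). Pnisr (-1.26), BC017643 (-0.89) and Pdcl (-0.87) fell too.

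Of the listed genes, Wnt11 rose with 60 min, from 35.6 to 85.8 CPM in the 30 min libraries to 127 to 199.6 CPM in the 60 min libraries (log2 fold change 1.51, edgeR adjusted p = 0.00804). It was the 1 of 9 Wnt ligands tested that passed, beside 1.87% of all genes tested, and counts of so few genes are not read further. Myc (1.39) among 12 Wnt targets, Sost (4.76) among 9 secreted inhibitors, Col15a1 (1.399) among 31 collagens and Isg15 (2.02) among 12 interferon-induced genes passed. Fn1 (2.37), Fbln2 (0.72) and Spon2 (3.23) among 26 matricellular genes, Serpine2 (1.19) and Tfpi2 (1.94) among 24 serine proteases and serpins, the hyaluronan synthase gene Has1 (4.26) and the TGF-β target Bhlhe40 (1.21) passed too. Spon2 and Has1 were also the 2 genes tested of the group Has1, Spon2 and Cxcl5 (median 3.74). At least 2 genes of that group were detected in 0.488% of members and 8.42% of the other fibroblasts. The part of such cells in these values was not tested. No list had a gene that fell, beside 0.411% of all genes tested. Of 23 immediate early genes on the list none passed (median 0.22, against -0.03 over all genes), but Ier5 and Myc, which passed, were not on it. In the other fibroblasts of the same libraries, 2.51% of 14749 genes passed, and the same confounding with batch and tracer holds there. Without Smad3+/+ replicate 5 the number of genes passing in members was 48, without Smad3SmKO replicate 6 it was 64, and without Smad3+/+ replicates 2 or 3, Smad3SmKO replicates 1 or 2 it was 101, 106, 116 and 130 in turn.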

How the data were processed

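Single-cell RNA sequencing (10x Genomics 3′ v3) had been run on sorted live aortic cells of 16 mice, 1 library per mouse. The authors deposited raw UMI counts per gene and cell, with no normalization. Per the labels these were made with Cell Ranger version 6 and build mm10 with a GFP sequence added, while the matrix headers name version 4.0.0. Deposited libraries held 12539500 to 52843000 UMIs. Following the study's limits, a cell was kept if its gene number lay between 600 and 6000, its UMI total between 2000 and 50000, and its mitochondrial share below 25%. No doublet caller was run, and cells with UMIs of at least 3 leukocyte, endothelial or heart muscle markers were removed as an alternative.

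The members, gene lists and comparisons were chosen with earlier results of these data known. Counts were summed over members, and over other fibroblasts, in each library with at least 10 members, so the mouse is the unit of every test. Genotype was tested with edgeR 4.0.16 (quasi-likelihood, R 4.3.3; TMM scaling, filterByExpr) with batch as a covariate, over both times together. The interaction fit had library as a block and membership by batch terms, and digestion was fitted at 18 weeks with genotype. The study compared single cells by a rank-sum test, which was not used because cells of 1 mouse are not replicates. Fold changes are log2, and genes at or near 0 in 1 group have fitted values that depend on the prior count and are no bound. The SE of an edgeR fold change was back-calculated from the fold change and its quasi-likelihood F statistic. Shares were compared by exact permutation tests. Named genes were the 12 highest and 12 lowest ratios with the same sign in every library, the genes with the smallest adjusted p, and members of the lists. Scripts were tested on simulated data. Alternatives were other scaling, filters, member rules, thinning, DESeq2 1.42.0 and leaving out each library. Promoter sequences came from RefSeq and gene positions from the GENCODE annotation. Values of 2 genes that these rules name are not reported here.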

Additional observations from a re-analysis of the deposited data

Results flagged for a closer look

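Of 58 groups of libraries checked, 8 held 1 library far from the rest, and chance gives such a library in about 1 of 20 groups. Smad3+/+ 18-week replicate 4, which had 12 members, stood apart for 5 genes: H2-Ab1 (71.64 CPM) and H2-Eb1 (117.7 CPM) were low in its members, and Dpep1 (235.4 CPM), Wisp2 (301.9 CPM) and Clec3b (747.2 CPM) were high. Smad3+/+ 18-week replicate 2 had the highest Id4 of its group (597.7 CPM). Smad3SmKO 18-week replicate 5 had the highest Coch (702.1 CPM), and replicate 4, with 28 members, the highest Gdf10 (137.5 CPM).

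The genotype effect at 18 weeks differed between members and the other fibroblasts for 8 genes by the interaction test. The fitted log2 differences were -4.901 for S100a8, -4.617 for S100a9, -5.393 for Il1b, -7.15 for Retnlg, -2.763 for Hp, -1.412 for Epha3, -10.94 for Nefl and -7.191 for Clec4e. These genes, except Epha3, were at or near 0 in several libraries, so that their fitted values depend on the prior count and are no bound. In Smad3+/+ replicate 1, 168 of 174 Retnlg UMIs of members lay in 1 cell, and in replicate 5 all 29 Clec4e UMIs did.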

How the results depend on the processing

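No paired analysis was possible because replicate numbers only follow the order of the samples and pair no mice. With no filter on low counts, 54 genes passed for genotype at 18 weeks, 62 at 10 weeks, 67 in the interaction and 828 for digestion, against 0, 0, 8 and 205. Members with at least 3 markers gave 49 genes in the interaction and 126 for digestion, and markers counted after thinning to 2000 UMIs gave 2 at 10 weeks, 42 in the interaction and about 1.3e+02 for digestion. DESeq2 called 5 genes at 10 weeks and 504 for digestion. The interaction kept 2 genes without possible doublets, which were flagged partly by S100a8 and S100a9, and 0 without membership by batch terms. Leaving out 1 library at a time gave 0 to 6 genes at 18 weeks, 0 to 3 at 10 weeks, 7 to 24 in the interaction (17 without Smad3+/+ 18-week replicate 1, 13 without replicate 3, 24 without Smad3SmKO replicate 2) and 48 to 224 for digestion. No fit at 10 weeks was possible without Smad3+/+ replicate 2. Leave-one-out differences in share were -4.504 to -0.2576 percentage points for genotype and -11.92 to -8.805 for digestion, and the genotype difference was 1.174 with 60 min digestions only. Signs turned for Mfge8 at 10 weeks (-0.0699 with at least 3 markers), and in the interaction for S100a9 (0.5744), Il1b (0.5019) and Clec4e (1.0) without possible doublets and Nefl (0.9005 with at least 3 markers, 1.187 after thinning). The cause of these changes was not tested.

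The 571 genes that differed at least 2-fold between members and other fibroblasts became 557 to 615 with 1 library left out, 620 with a pseudocount of 1 CPM, 635 in cells of 4000 to 12000 UMIs, 633 with at least 3 markers and 658 after thinning, and 489 to 571 of the original calls were kept. TMM scaling moved the median of all genes from 0.06 to -0.05 and gave 198 higher and 386 lower genes in place of 238 and 333. List medians within that shift of 0 can change sign with the scaling. Of the 14 libraries compared, 4 held only 12, 28, 30 and 63 members, which limits the precision of low transcripts there.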

Other observations

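Cells outside the fibroblast gate also carried the rule markers. In all, 407 such cells held UMIs of at least 2 of them, of which 217 had no Dcn UMI and 9 had at least 5 but no more than their Myh11 UMIs. Of 8965 smooth muscle cells (median 7952 UMIs), 389 (4.34%) held at least 2 markers. A Wif1 UMI was present in 29.6% of them, a Nrgn UMI in 11.9%, a Prss35 UMI in 0.948% and a Coch UMI in 0.390%. Over the 217 cells without Dcn, Wnt16 was 115 CPM and Eln 2114 CPM, whereas Id4 was 83.0 CPM, H2-Ab1 19.6 CPM and Mal 0. None of 1309 endothelial cells held 2 markers, although 5.27% held a Nrgn UMI, and none of 2880 leukocytes or 109 Schwann cells did.

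The members held 7 GFP UMIs in all.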
